A study of Mus musculus with 4 samples.

Results

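A set of 10 lymphoid receptor genes (Gpr174, P2ry10, Gpr183, Gpr18, Gpr65, Gpr171, Adora2a, Ptger4, S1pr4 and P2rx7) was described in double positive thymocytes, the stage of thymic T cell development at which both CD4 and CD8 are expressed. The members were the probe sets whose only platform gene symbol was one of these names, which gave 14 probe sets for 9 genes, out of 34945 probe sets for 18193 genes with a single symbol. No probe set carried the symbol Adora2a, the adenosine receptor gene, and it was not analysed here. Of the 9 genes, 8 had a mean signal at or above the filter on low values (a log2 signal of 4.76) and Gpr18 lay below it. The genes were chosen with the comparison of the groups already known, so their differences are given as a description and without a p-value.

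Thymocytes of 4 mice were measured, 1 Affymetrix array per mouse: 2 Ikf/f CD4-Cre+ mice and 2 Ikf/f CD4-Cre- mice, with the floxed allele that all 4 share written Ikf/f. In the Cre+ mice, Cre recombinase under Cd4 regulatory elements is meant to delete Ikaros, the zinc finger protein encoded by Ikzf1, from about the double positive stage on. No Cre+ mice without the floxed allele were included, so effects of Cre and of Ikaros loss cannot be told apart. The sources used here do not give age, strain, the method of cell isolation or the hybridisation batches.

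Most of these genes encode G protein-coupled receptors, which cross the membrane and pass a signal from a lipid, nucleotide, nucleoside or proton outside the cell to G proteins inside it. Receptors coupled to the stimulatory G protein raise cyclic AMP, which dampens T cell receptor signalling, while those coupled to inhibitory or other G proteins steer migration and adhesion. Such receptors place lymphocytes in tissue and tune their response to ATP, adenosine, prostaglandin E2, lysophosphatidylserine, oxysterols and sphingosine 1-phosphate. P2rx7 is the exception in the set: it encodes an ATP-gated cation channel, not a G protein-coupled receptor.

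Of the markers of double positive thymocytes, Rag1, a subunit of the recombinase of antigen receptor genes, had RMA log2 signals of 13.25 to 13.46 on all 4 arrays. Cd8a read 12.72 and 12.71 in the Cre+ mice, against 12.99 and 13.04 in the Cre- mice. Linear signals of all 11 such markers summed to 49659 and 50309 in the Cre+ mice, against 54926 and 54225 in the Cre- mice. None was past the threshold (limma adjusted p under 0.05), and the median was −0.11. A difference above 0 was seen in 4 of them, against 7098 of all 11639 genes kept by the filter. Cd1d1 differed by −0.66 and Ptcra by 1.16. Ikzf1 was lower in the Cre+ mice by 1.53 on the log2 scale (SE 0.16, limma adjusted p = 0.024), with its dimmer probe set at −0.22, and was not past the threshold once any 1 array was left out. One Cre- mouse, sample 2, had the array pattern of a female, with Xist at 12.75 against 4.73 in Cre- sample 1 and 5.09 and 5.37 in the Cre+ mice. Gpr174 and P2ry10 lie on the X chromosome, so values without that array are given beside them.

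Among the receptors, Gpr174 had the largest difference and was lower in the Cre+ mice, and it was the only one of the 8 kept genes past the threshold (adjusted p under 0.05 in limma over 11639 genes). Gpr171 also read below the Cre- mice on both Cre+ arrays. Gpr183, P2rx7 and Ptger4 read above them on both, as did Gpr18 below the filter. P2ry10, Gpr65 and S1pr4 had groups that overlapped. By the same rule 1.37% of all kept genes were past the threshold in either direction, 1.11% as higher and 0.266% as lower in the Cre+ mice. Groups that did not overlap, in either direction, were found for 5 of the 8 kept receptors and for 52.9% of all kept genes. Because the receptors were picked from this contrast, nothing is read from their count. In bulk RNA fewer cells of a type and less RNA per cell cannot be told apart.

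**Figure D1:**
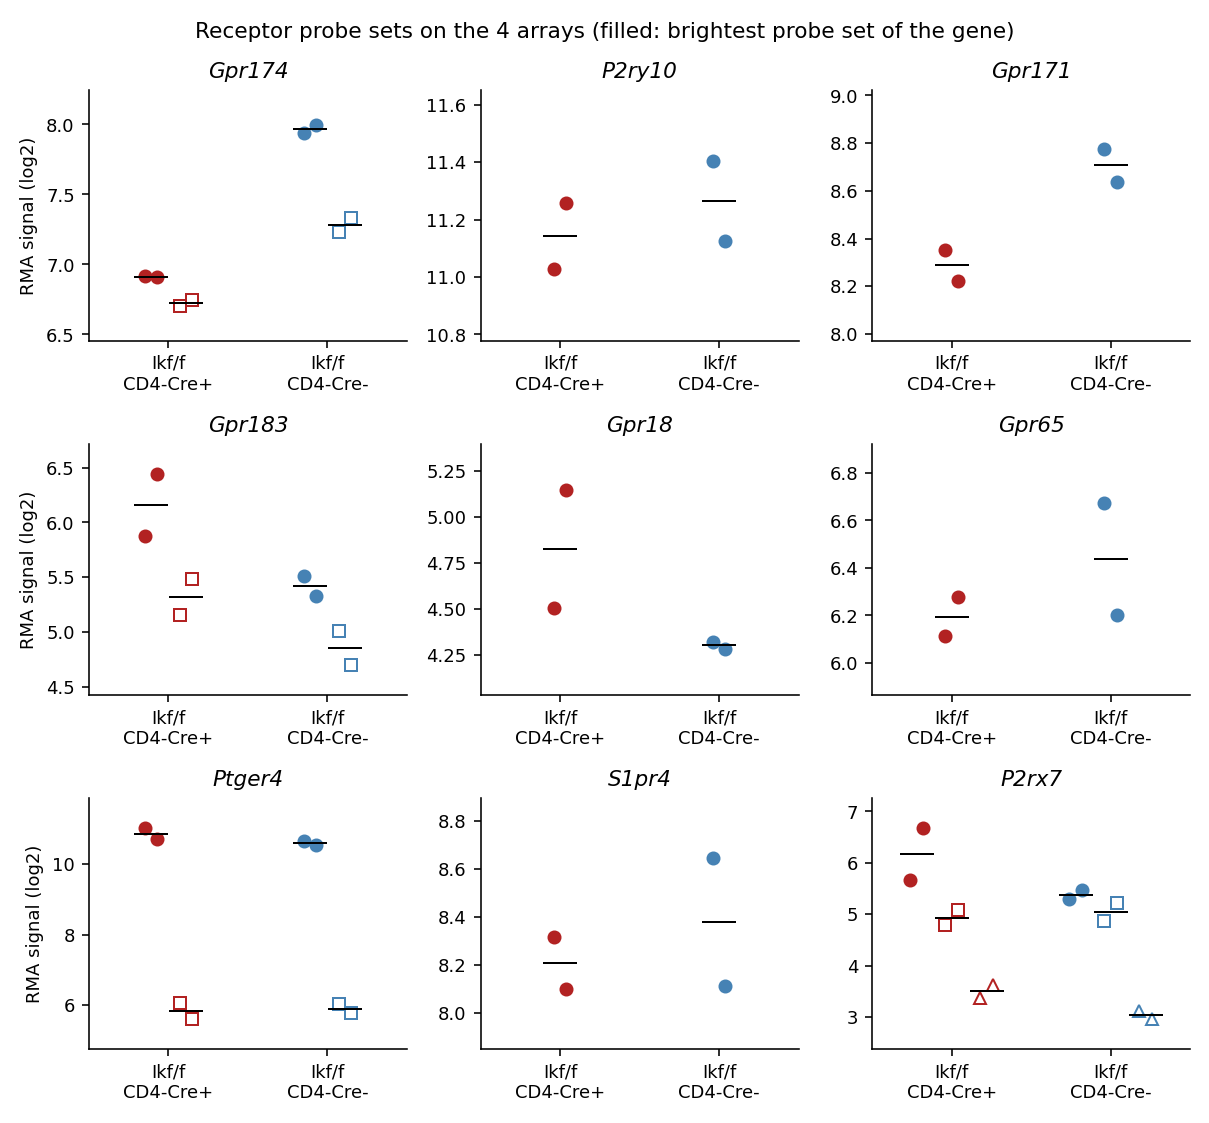
RMA log2 signal of each receptor probe set (vertical axes, a separate range for each gene) in the Ikf/f CD4-Cre+ (left, red) and Ikf/f CD4-Cre- (right, blue) mice, 1 point per array, with a bar at the group mean. Filled points are the brightest probe set of the gene and open points its other probe sets; the Gpr174 groups differ by −1.06 in the brightest probe set, while the points of P2ry10, Gpr65 and S1pr4 overlap between the groups.

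Gpr174 and P2ry10 encode receptors for lysophosphatidylserine, a lysophospholipid released by dying and activated cells. Gpr174 signals through the stimulatory G protein and restrains T cells. The brighter of its probe sets read 6.92 and 6.91 in Cre+ samples 1 and 2, against 7.9371 and 7.9996 in Cre- samples 1 and 2. The arrays of each group lay close together and the groups were far apart. The means were 6.91 ± 0.003 in the Cre+ mice and 7.97 ± 0.04 in the Cre- mice (SD, n = 2 each). The difference was −1.06 on the log2 scale with a moderated SE of 0.11, a 2.08-fold lower signal in the Cre+ mice. The second probe set, whose identifier marks probes that may bind other transcripts, read 6.70 and 6.74 in the Cre+ mice, against 7.23 and 7.33 in the Cre- mice. It differed in the same direction by −0.56. Without Cre- sample 2, the array with the female pattern, the brighter probe set differed by −1.02, with only Cre- sample 1 left in that group. The part of sex in the Gpr174 difference was not tested.

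P2ry10, the other lysophosphatidylserine receptor gene of the set, read 11.03 and 11.26 in Cre+ samples 1 and 2, against 11.40 and 11.13 in Cre- samples 1 and 2. The groups overlapped, since Cre+ sample 2 lay above Cre- sample 2. The difference of −0.12 (SE 0.15) was smaller than the gap of 0.28 between the Cre- arrays, and it was −0.26 without Cre- sample 2. Gpr174 and P2ry10 are close neighbours on the chromosome, with only P2ry10b, a paralogue of P2ry10, between them in the RefSeq order of protein coding genes. P2ry10b read 7.55 and 7.62 in the Cre+ mice, against 7.56 and 7.70 in the Cre- mice, and differed by −0.04 (limma adjusted p = 0.876). On the far side of Gpr174, Itm2a, which encodes a membrane protein that appears during thymocyte maturation, read 11.9998 and 11.5279 in the Cre+ mice, against 10.84 and 10.80 in the Cre- mice. Itm2a thus differed by 0.94, opposite in sign to Gpr174, and did not pass (SE 0.18, adjusted p = 0.0745). Lpar4, a lysophosphatidic acid receptor gene, lies on the other side of P2ry10. The brightest of its 3 probe sets differed by 0.93 (SE 0.37, limma adjusted p = 0.237) and the others by as little as 0.04. The brightest had 5.56 and 6.73 in the Cre+ mice, against 5.25 and 5.17 in the Cre- mice. P2ry10b, Itm2a and Lpar4 lie on the X chromosome too, and the part of sex in their differences was not tested.

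The promoter of Gpr174 is shown because this gene had the largest difference. The RefSeq window of 250 bases before to 50 after the start (GRCm38.p6, chrX:107284096-107284395, plus strand) was searched on both strands for TGGGAA, a core sequence bound by Ikaros, and held no match.
Gpr174: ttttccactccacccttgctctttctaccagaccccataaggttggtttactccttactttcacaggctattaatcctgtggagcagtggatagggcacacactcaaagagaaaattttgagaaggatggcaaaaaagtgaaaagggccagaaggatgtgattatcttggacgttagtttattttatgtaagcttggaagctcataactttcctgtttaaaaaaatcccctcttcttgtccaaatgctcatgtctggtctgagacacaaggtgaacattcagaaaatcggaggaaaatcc
Capitals would mark the motif, and there are none in this window. Neither of the 2 windows of P2ry10 held the motif. The motif was held by 25.6% of all 32851 promoter windows, so a window with or without it is common. No match says only that these letters are not in this window.

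Gpr171, reported as a receptor for the neuropeptide BigLEN and expressed by T cells, read 8.35 and 8.22 in Cre+ samples 1 and 2, against 8.77 and 8.64 in Cre- samples 1 and 2. Both Cre+ arrays lay below both Cre- arrays, by a smaller step than for Gpr174. The means were 8.29 ± 0.09 in the Cre+ mice and 8.71 ± 0.10 in the Cre- mice (SD, n = 2 each), a difference of −0.42 (SE 0.12) that was not past the threshold. Such a separation, with Cre+ below Cre-, was found in 18.7% of all kept genes, and Gpr171 and Gpr174 were the receptors that showed it. P2ry14, a UDP-sugar receptor gene next to Gpr171 on the chromosome, read 5.81 and 5.74 in the Cre+ mice, against 6.10 and 5.72 in the Cre- mice. Its groups overlapped and it differed by −0.14 (SE 0.16, limma adjusted p = 0.684). Med12l, the gene before Gpr171 in the RefSeq order by start, differed by −0.34 (SE 0.22, limma adjusted p = 0.440). Its 3 probe sets lay between −0.34 and −0.03.

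Gpr183, or EBI2, is the receptor for dihydroxylated oxysterols that positions B cells, dendritic cells and T cells in lymphoid tissue. The brighter of its probe sets read 5.88 and 6.44 in Cre+ samples 1 and 2, against 5.52 and 5.33 in Cre- samples 1 and 2. The Cre+ arrays lay above the Cre- arrays, with Cre+ sample 2 the higher. The means were 6.16 ± 0.40 in the Cre+ mice and 5.42 ± 0.13 in the Cre- mice (SD, n = 2 each), and the difference of 0.74 (SE 0.21) was not past the threshold. The other probe set read 5.16 and 5.49 in the Cre+ mice, against 5.01 and 4.70 in the Cre- mice, and differed by 0.46. Without Cre+ sample 2 the difference of the brighter probe set was 0.46, and without Cre+ sample 1 it was 1.02, so its size depended on which Cre+ mouse was used.

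Gpr18, which is needed for the normal number of CD8 T cells in the mouse gut epithelium, lies beside Gpr183 on chromosome 14. Its probe set was dim and its mean was under the filter, so it did not enter the test. It read 4.51 and 5.15 in Cre+ samples 1 and 2, against 4.32 and 4.28 in Cre- samples 1 and 2. Both Cre+ arrays were above the Cre- arrays, again with Cre+ sample 2 the highest, and the difference was 0.52. The neighbouring genes kept by the filter showed smaller differences: Ubac2, a gene of the ubiquitin system, differed by 0.06 (SE 0.12, limma adjusted p = 0.815), the guanine nucleotide exchange factor gene Dock9 by 0.02 (SE 0.16, adjusted p = 0.967) and Tm9sf2 by 0.12 (SE 0.11, adjusted p = 0.599). Other probe sets of Dock9 ranged from −0.09 to 0.16 and those of Tm9sf2 down to −0.22.

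The promoter windows of Gpr183 and Gpr18 are shown together because these adjacent genes read higher in the same arrays. The Gpr183 window (GRCm38.p6, chr14:121965144-121965443, minus strand) held 1 match to TGGGAA, on the strand opposite to the gene, beginning 64 bases before the start. The Gpr18 window (chr14:121915839-121916138, minus strand) held none. Capitals mark the motif, which appears as its reverse complement.
Gpr183: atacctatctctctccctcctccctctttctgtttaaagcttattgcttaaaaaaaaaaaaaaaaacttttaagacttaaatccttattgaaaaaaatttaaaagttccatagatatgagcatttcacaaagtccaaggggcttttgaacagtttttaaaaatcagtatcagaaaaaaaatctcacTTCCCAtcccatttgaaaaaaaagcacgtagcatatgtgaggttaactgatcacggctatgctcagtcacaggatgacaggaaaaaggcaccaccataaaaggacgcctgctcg
Gpr18: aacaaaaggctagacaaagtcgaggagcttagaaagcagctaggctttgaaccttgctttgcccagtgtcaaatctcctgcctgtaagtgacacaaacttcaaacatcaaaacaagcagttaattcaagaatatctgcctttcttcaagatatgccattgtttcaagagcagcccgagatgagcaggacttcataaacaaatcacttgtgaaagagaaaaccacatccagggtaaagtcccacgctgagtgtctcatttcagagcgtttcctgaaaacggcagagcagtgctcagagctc
Of the 8 receptor genes with a window in the table, 2 held the motif, Gpr183 and P2rx7, which is 25.0% of them against 28.3% of all 27025 genes with a window.

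P2rx7, the ATP-gated channel through which extracellular ATP can kill T cells, was measured by 3 probe sets that did not run alike. The brightest read 5.67 and 6.67 in Cre+ samples 1 and 2, against 5.30 and 5.47 in Cre- samples 1 and 2. Both Cre+ arrays lay above the Cre- arrays, but the Cre+ arrays were 1.00 apart, more than the difference of 0.78 (SE 0.32) between the groups. The means were 6.17 ± 0.71 in the Cre+ mice and 5.38 ± 0.12 in the Cre- mice (SD, n = 2 each), and the difference was not past the threshold. The second probe set read 4.78 and 5.07 in the Cre+ mice, against 4.88 and 5.22 in the Cre- mice, and its groups overlapped, with a difference of −0.12. The third, below the filter, read 3.38 and 3.63 in the Cre+ mice, against 3.11 and 2.97 in the Cre- mice, and differed by 0.46. Without Cre+ sample 2 the brightest probe set differed by 0.28, and without Cre+ sample 1 by 1.28.

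The gene beside P2rx7 encodes another ATP-gated channel, P2rx4, which read 6.75 and 6.65 in the Cre+ mice, against 6.90 and 6.61 in the Cre- mice. Its groups overlapped and it differed by −0.05 (SE 0.14, limma adjusted p = 0.870). Of the 2 promoter windows of P2rx7 in the table, the one shown (GRCm38.p6, chr5:122650133-122650432, plus strand) held TGGGAA on the gene's strand, beginning 187 bases before the start, and the other held none. The probe sets could not be tied to a start, since the sources used here do not place their probes.
P2rx7: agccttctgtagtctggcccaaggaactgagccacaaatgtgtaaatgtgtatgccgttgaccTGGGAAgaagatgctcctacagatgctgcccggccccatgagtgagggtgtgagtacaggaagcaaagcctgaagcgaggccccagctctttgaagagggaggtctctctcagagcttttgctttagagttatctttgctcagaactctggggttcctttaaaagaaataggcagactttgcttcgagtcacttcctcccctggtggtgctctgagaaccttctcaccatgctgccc

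Ptger4 encodes EP4, a receptor for prostaglandin E2 that raises cyclic AMP. The brighter of its probe sets read 11.01 and 10.70 in Cre+ samples 1 and 2, against 10.65 and 10.54 in Cre- samples 1 and 2. The Cre+ arrays were above the Cre- arrays by a narrow margin, and the difference was 0.27 (SE 0.15), not past the threshold. The other probe set read 6.04 and 5.61 in the Cre+ mice, against 6.02 and 5.76 in the Cre- mice, overlapped between the groups and differed by −0.06. With the mean of both probe sets Ptger4 differed by 0.10. A separation with Cre+ above Cre-, as seen in Gpr183, P2rx7 and Ptger4, was found in 34.2% of all kept genes. Ptger2, the gene of the related receptor EP2, lay below the filter, at 4.74 and 4.46 in the Cre+ mice, against 4.65 and 4.47 in the Cre- mice.

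Gpr65, a proton-sensing receptor that also raises cyclic AMP, read 6.11 and 6.28 in Cre+ samples 1 and 2, against 6.67 and 6.20 in Cre- samples 1 and 2. The groups overlapped, and the Cre- arrays were 0.47 apart, more than the difference of −0.24 (SE 0.19). Gpr132, a related receptor gene, read 6.28 and 6.35 in the Cre+ mice, against 6.57 and 6.25 in the Cre- mice, and differed by −0.09 (SE 0.15, limma adjusted p = 0.776), with its other probe set at 0.14. S1pr4, a sphingosine 1-phosphate receptor gene of lymphocytes, read 8.32 and 8.10 in Cre+ samples 1 and 2, against 8.65 and 8.11 in Cre- samples 1 and 2. Its groups overlapped, the Cre- arrays were 0.53 apart and the difference was −0.17 (SE 0.20). S1pr1, the receptor gene that drives egress of mature T cells from the thymus, lay below the filter, at 4.29 and 4.52 in the Cre+ mice, against 4.33 and 4.29 in the Cre- mice. For P2ry10, Gpr65 and S1pr4 the groups differed by less than the spread between the Cre- mice.

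**Figure D2:**
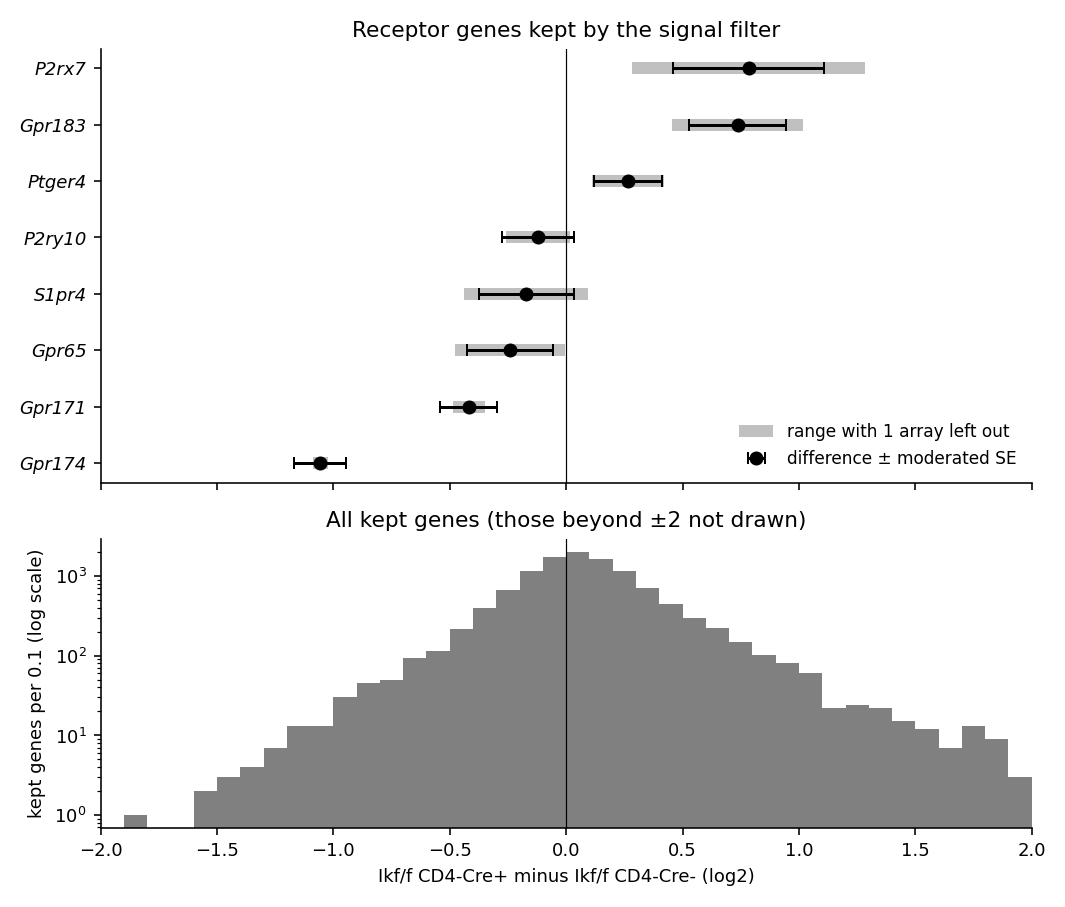
Top, difference between Ikf/f CD4-Cre+ and Ikf/f CD4-Cre- mice on the log2 scale for the 8 receptor genes kept by the filter, with the moderated SE (bars) and the range when 1 array is left out (grey). Bottom, number of all 11639 kept genes per 0.1 log2 unit, on a log scale. Gpr174 at −1.06 has the narrowest grey range and P2rx7 at 0.78 the widest.

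Leaving out any 1 array kept the Gpr174 difference between −1.09 and −1.02, but Gpr174 was not past the threshold in any of these fits, which rest on 3 arrays. Among all kept genes Gpr174 was the 37th from the lowest difference of 11639. The median difference of the 8 kept receptors was −0.15, with 3 above 0 and 5 below, and that of all kept genes was 0.06. Centring the arrays on the median of the kept genes moved the median of all genes to −0.07 and the receptor median to −0.28. Of all genes past the threshold, 129 were higher and 31 lower in the Cre+ mice, 80.6% higher, and after that centring 75 were higher and 48 lower, 61.0% higher. With this centring Gpr174 differed by −1.18, Gpr171 by −0.55, Gpr183 by 0.61, P2rx7 by 0.65 and Ptger4 by 0.14, each in the direction given above.

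The genes with the array profile nearest to Gpr174 were found by the Euclidean distance between the 4 array values, each centred on the gene's mean, over 11639 genes. Cyb5d2, a cytochrome b5 domain gene, was the nearest at a distance of 0.057. It read 5.60 and 5.58 in Cre+ samples 1 and 2, against 6.62 and 6.61 in Cre- samples 1 and 2. Next were Ccnt2, the cyclin T2 gene of transcription elongation (distance 0.141), Evi2a (0.154), the deubiquitinase gene Stambpl1 (0.168) and the transmembrane protein gene Prrg1 (0.172). Their differences lay between −1.19 for Stambpl1 and −0.93 for Prrg1. The 4 arrays are shared by all genes and such a likeness over so few arrays is a description only.

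**Figure D3:**
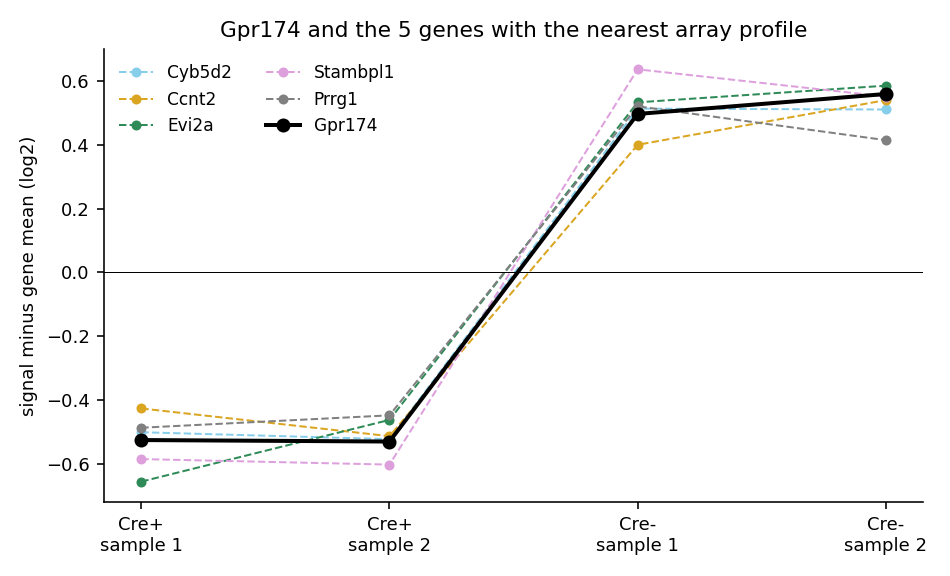
RMA log2 signal minus the mean of the gene (vertical axis) on the 4 arrays for Gpr174 (black) and the 5 genes with the nearest profile (dashed). All 6 genes lie below their mean in both Ikf/f CD4-Cre+ samples and above it in both Ikf/f CD4-Cre- samples; lines join points of a gene and stand for no order.

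Related genes outside the set were compared in limma over all kept genes, from lists drawn up by function. Before adjustment, 20.6% of all kept genes had p under 0.05, 14.3% as higher and 6.29% as lower in the Cre+ mice, against which the counts before adjustment are to be read. None of 20 kept receptors of leukocytes related to the set passed in either direction (4 before adjustment, at p under 0.05, 3 higher and 1 lower, near the share of all genes), and their median difference was −0.02. Adgrg3, an adhesion receptor of granulocytes and lymphocytes, differed by 0.72 (SE 0.23, adjusted p = 0.170). The sphingosine 1-phosphate receptor gene S1pr2 differed by 0.35 (SE 0.11, adjusted p = 0.170), though its other probe set by 0.07. Lpar6, a lysophosphatidic acid receptor gene, differed by −0.37 (SE 0.12, adjusted p = 0.169). Of 58 receptors listed, 47 had a probe set, so 27 of them lay below the filter.

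Genes that make, move or break down the ligands gave no call either. Of 18 kept, 0 passed in limma (4 before adjustment, at p under 0.05, all higher, against 20.6% of all genes), the median difference was 0.20, and 15 had a difference above 0 against 7098 of all 11639 genes. Plpp3, a lipid phosphatase that removes lysophospholipids and sphingosine 1-phosphate, differed by 0.95 (SE 0.28, adjusted p = 0.148), with 5.80 and 4.99 in the Cre+ mice, against 4.32 and 4.55 in the Cre- mice. Sgpl1, the lyase that destroys sphingosine 1-phosphate, differed by 0.54 (SE 0.16, adjusted p = 0.155), but its other probe set by −0.23. Hsd3b7, which breaks down the oxysterol ligand of Gpr183, differed by 0.83 (SE 0.30, adjusted p = 0.209). It read 7.932 and 6.996 in the Cre+ mice, against 6.56 and 6.71 in the Cre- mice. Adk, the adenosine kinase gene, differed by 0.84 (SE 0.29, adjusted p = 0.195), while its probe sets ranged down to −0.26.

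Among 43 kept genes of G protein and cyclic AMP signalling, 0 passed in limma (12 before adjustment, at p under 0.05, 9 higher and 3 lower, against 20.6% of all genes), and the median was 0.01. Gng2, a G protein gamma subunit gene, came closest, at 6.84 and 6.82 in the Cre+ mice, against 5.78 and 6.07 in the Cre- mice. The Gng2 groups did not overlap, and it differed by 0.90 (SE 0.14, adjusted p = 0.054), with its 4 probe sets between 0.61 and 1.37. With the mean of its probe sets Gng2 differed by 0.97 and passed (adjusted p = 0.0265). The regulatory subunit genes of protein kinase A, Prkar2a and Prkar2b, differed by 1.30 (SE 0.24, adjusted p = 0.0723) and 0.90 (SE 0.18, adjusted p = 0.0795), although another Prkar2a probe set differed by −0.11. The G protein beta subunit gene Gnb4 differed by 1.17 (SE 0.25, adjusted p = 0.087). In Cre+ samples 1 and 2, Prkar2a read 7.57 and 6.86 and Gnb4 9.82 and 9.09. Leaving out Cre+ sample 2, the lower array for both, therefore widened their differences, to 1.66 and 1.53.

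Of 14 kept genes known to respond to cyclic AMP, 0 passed in limma (2 before adjustment, at p under 0.05, both higher, against 20.6% of all genes) and the median was 0.09. Dusp1, a phosphatase gene of the early response, differed by 0.62 (SE 0.11, adjusted p = 0.0707) and the phosphodiesterase gene Pde4b by 0.43 (SE 0.13, adjusted p = 0.150), with another Pde4b probe set at −0.43. Crem, a cyclic AMP response factor gene, differed by −0.14 (SE 0.12, adjusted p = 0.565), and its 4 probe sets ranged from −0.36 to 0.14. Per1, a clock gene, differed by 0.24 (SE 0.16, adjusted p = 0.476). Of 21 kept chromosomal neighbours of the receptors, 0 passed (6 before adjustment, at p under 0.05, 5 higher and 1 lower, against 20.6% of all genes), with a median of 0.06, the same to 2 decimals as that of all genes. Gna11, a G protein alpha subunit gene close to S1pr4, differed by −0.45 (SE 0.11, adjusted p = 0.120), Specc1l beside Adora2a by 0.29 (SE 0.11, adjusted p = 0.223; −0.23 in its other probe set) and Ift81 near P2rx7 by 0.61 (SE 0.23, adjusted p = 0.224; its 3 probe sets lay between 0.18 and 0.61).

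**Figure D4:**
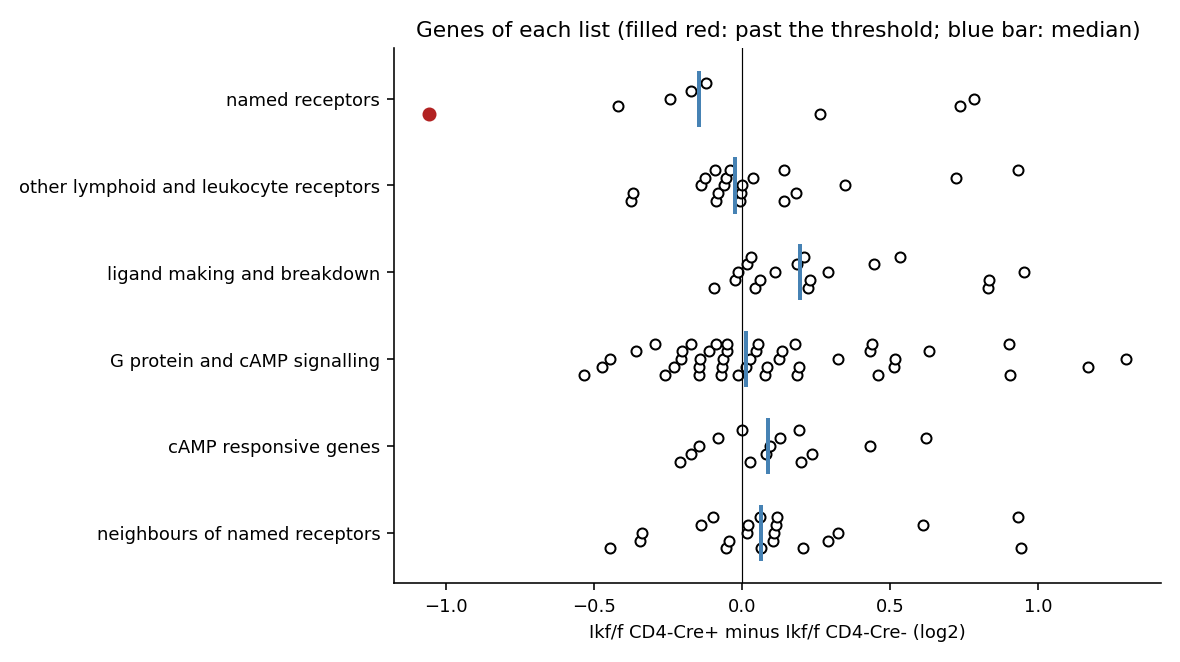
Difference between Ikf/f CD4-Cre+ and Ikf/f CD4-Cre- mice on the log2 scale (horizontal axis), 1 point per kept gene, for the named receptors and 5 lists of related genes (vertical position within a list only spreads the points). The red point is Gpr174, the single gene past the threshold, and blue bars are the list medians, between −0.15 for the named receptors and 0.20 for the ligand genes.

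Markers of macrophages and granulocytes differed unevenly between the groups. Adgre1 differed by −0.03, Elane by 0.02, Fcer1g by 0.06 and Csf1r, with overlapping groups, by 0.19. Of 11 kept macrophage and granulocyte markers 2 passed in limma, both higher, the protease gene Ctss and the lysozyme gene Lyz2. The summed linear signal of all 16 measured was 1100 and 1526 in Cre+ samples 1 and 2, against 493 and 481 in Cre- samples 1 and 2. Of the 16, 15 had a difference above 0, against 7098 of all 11639 kept genes, and the median of the kept markers was 0.82. The gap between the Cre+ arrays was that of the granulocyte genes S100a8 and S100a9: S100a8 read 4.52 and 8.38 in the Cre+ mice, against 4.50 and 4.02 in the Cre- mice. Without these 2 genes the sum was 1064 and 1051 in the Cre+ mice, against 456 and 452 in the Cre- mice. With only Ctss left out it was 659 and 1113 in the Cre+ mice, against 420 and 441 in the Cre- mice. Ctss, Csf1r, Cd68 and the complement genes C1qa, C1qb and C1qc read higher in Cre+ sample 1 than in Cre+ sample 2. Lyz2 went the other way, at 7.14 and 7.55 in Cre+ samples 1 and 2, and so did Tyrobp, at 5.62 and 5.79. Adgre1, Fcer1g, Elane, Mpo, Fcgr3 and Itgam also read higher in Cre+ sample 2. Gpr183, Gpr18 and P2rx7 read highest in Cre+ sample 2. Itgam and Fcgr3, defining genes of these cells, were below the filter on all 4 arrays. The part of these cells in the Gpr183, Gpr18 and P2rx7 values was not tested.

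The sum of the 11 dendritic cell markers, 9722 and 9513 in the Cre+ mice, against 10551 and 9588 in the Cre- mice, was mostly Ccr9, a chemokine receptor gene that thymocytes express too. Without Ccr9 it was 1108 and 1135 in the Cre+ mice, against 522 and 391 in the Cre- mice. Of 9 kept genes 2 passed, both higher, the MHC class II gene H2-Ab1 (1.58) and Irf8 (1.08), the median was 0.27, and H2-Aa (2.25) and H2-Eb1 (1.68) did not pass. The other kept genes did not pass and differed less: Itgax by 0.27, Siglech by 0.01, Zbtb46 by −0.14, Flt3 by −0.16 and Ccr9 by −0.18. Xcr1 and Cd83 were below the filter on all arrays. The 7 B cell markers summed to 6309 and 6821 in the Cre+ mice, against 7557 and 8104 in the Cre- mice, of which Ighm made up 92.2% to 93.9%. Without Ighm the sum was 431 and 529 in the Cre+ mice, against 459 and 493 in the Cre- mice, which overlapped. None of 5 kept passed in limma, and Cd79a and Ebf1 were below the filter on all arrays. The 9 markers of NK and innate lymphoid cells summed to 4058 and 2935 in the Cre+ mice, against 1427 and 1346 in the Cre- mice. That sum was mostly Gzma, the 1 of 2 kept genes that passed, and 6 of the 9, Ncr1 among them, were below the filter on all arrays. The other kept gene, Prf1, differed by −0.32. Without Gzma the sum was 191.3 and 190.5 in the Cre+ mice, against 176.7 and 179.9 in the Cre- mice. The 11 stromal and epithelial markers summed to 3386 and 689 in the Cre+ mice, against 387 and 399 in the Cre- mice. Most of that gap was Col1a2, a fibroblast collagen gene with the highest difference of all kept genes (4.52), which read 11.55 and 8.01 in the Cre+ mice, against 5.18 and 5.33 in the Cre- mice, and did not pass. Without Col1a2 the sum was 394 and 432 in the Cre+ mice, against 351 and 359 in the Cre- mice. Of its 6 kept genes 1 passed, the growth factor receptor gene Pdgfrb, which was higher, and 5 of the 11, Col1a1 and Col3a1 among them, were below the filter on all arrays.

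Maturation and cell cycle markers were read in the same way. The 9 markers of mature single positive T cells, which carry several of these receptors, summed to 5131 and 3261 in the Cre+ mice, against 5040 and 4814 in the Cre- mice, and 1 of 8 kept passed, Il7r, which was higher. Cd5 made up most of that sum on each array, and the median of the kept genes was 0.02. Without Cd5 the sum was 1491 and 1304 in the Cre+ mice, against 1818 and 1586 in the Cre- mice. Of the 9 markers, 6 had a difference above 0, against 7098 of all 11639 kept genes. The 16 proliferation genes summed to 16432 and 28459 in the Cre+ mice, against 10854 and 18951 in the Cre- mice, so sample 2 was the higher in both groups. Of the 16, 15 had a difference above 0, against the same 7098 of 11639 genes. Their median was 0.75, and 0 passed in limma. The part of maturation, cell cycle and other cells in the receptor values, Gpr174 included, was not tested.

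**Figure D5:**
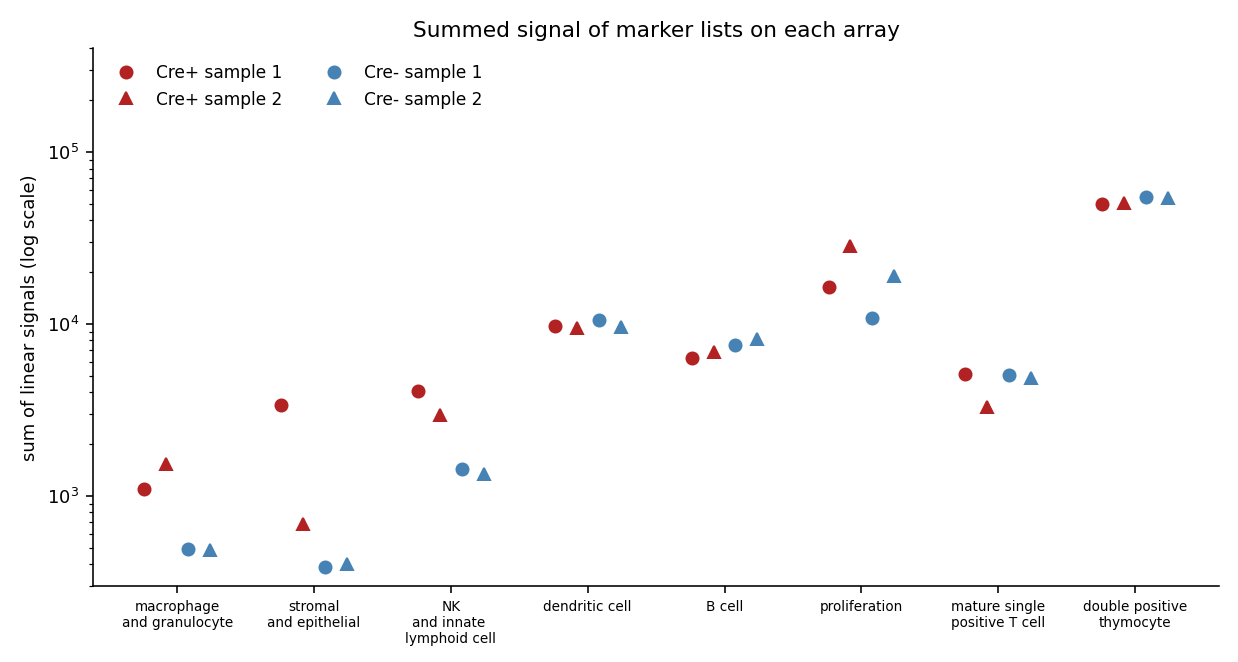
Sum of linear signals (log axis) of each marker list on the 4 arrays, Ikf/f CD4-Cre+ in red and Ikf/f CD4-Cre- in blue, sample 1 as circles and sample 2 as triangles. The macrophage and granulocyte sum is 1100 and 1526 in the Cre+ samples and 493 and 481 in the Cre- samples, and the high stromal sum of Cre+ sample 1 is mostly Col1a2.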

How the data were processed

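The values deposited for the 4 mice are log2 signals that the authors made with RMA, as the submitters' processing notes say without naming a version. The values lay between 2.18 and 14.4; base 2 is taken from RMA's usual scale. RNA was amplified in 2 cycles per the labels' protocols, and arrays give no counts, so 2 arrays per group limit the precision. Of 45037 probe sets, 34945 had 1 gene symbol, 932 several and 9160 none; 34741 matched RefSeq by Entrez identifier. Each gene was represented by its brightest probe set, and 11639 genes at or above the 40th percentile of signal were tested with limma 3.58.1 in R 4.3.3 (lmFit, eBayes; 2 residual degrees of freedom, prior 3.59), two-sided, with Benjamini-Hochberg adjustment. Differences are Cre+ minus Cre-. With 2 arrays in each group the smallest two-sided exact permutation p for a single gene is 0.333, and limma therefore borrows the spread of all genes. Receptors and lists were chosen with earlier results of these data known. Named were all receptors, Ikzf1, 5 relatives, and called genes plus the 4 next by p of each list. Promoters came from RefSeq (GRCm38.p6), neighbours (2 on each side) from the RefSeq gene order. Alternatives varied the filter, probe sets, variance prior, scaling, weights, block and arrays. Protein sequences were not used here. Figures used matplotlib 3.10.9.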

Additional observations from a re-analysis of the deposited data

How the results depend on the processing

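Among the receptors tested, Gpr174 was the 1 that passed in limma under each alternative that kept all 4 arrays; 5 were tested with the filter at the 60th percentile (not Gpr183, Gpr65 or P2rx7) and 7 with the mean of probe sets (not P2rx7). Without any 1 array the count was 0. Over alternatives with 1 value per gene the Gpr174 difference lay between −1.18 and −0.81, the last with the mean of its probe sets. P2ry10 and S1pr4 changed sign, to 0.02 and 0.10, without Cre- sample 1. The other receptors kept their direction where tested with 1 value per gene. With every probe set tested, the second probe sets of Ptger4 (−0.06) and P2rx7 (−0.12) were opposite in sign to the brightest. The count of all genes past the threshold, 160, was 90 with the filter at the 60th percentile, 104 without probe sets that may match more than 1 transcript, 245 with a robust prior and 821 with the sample number as a replicate block, and 3 to 99 with 1 array left out: 14 without Cre- sample 1, 3 without Cre- sample 2, 43 without Cre+ sample 1 and 99 without Cre+ sample 2. Ikzf1 differed by −1.69 to −1.37 with 1 array left out, with adjusted p of 0.0717 to 0.164. The replicate block called 1 ligand gene (Adk), 4 signalling genes (Gnb4, Gng2, Prkar2a, Prkar2b), 1 cyclic AMP responsive gene (Dusp1) and 1 neighbour (Itm2a). The deviations of equally numbered samples correlated at 0.18 across genes, but with 2 pairs the number does not make pairs, and the cause of the larger counts was not tested. Signalling genes called were 1 without the filter, with the mean of probe sets, with a robust prior and with arrays centred on their median (Gng2 each time), 1 without multi-transcript probe sets (Arhgef1, −1.18), 2 with every probe set tested (Gng2 and Arhgef1), and 0 to 2 with 1 array left out; the related receptors were 0 throughout. The value of Arhgef1 given here is that of a dimmer probe set. Its brightest, used in the main fit, differed by −0.23 (SE 0.13, limma adjusted p = 0.382). The centring on kept genes was chosen after the data were seen. With 2 arrays per group, small differences could not be detected.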
